A study of Mus musculus with 6 samples.

Results

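The cytosolic ribosomal protein genes encode the protein part of the ribosome that translates messenger RNA in the cytoplasm. They were taken as the protein-coding genes whose symbol is Rpl or Rps followed by a number, with or without the letters a, x or y or further digits, plus Rpsa, Rplp0, Rplp1 and Rplp2. The rule found 77 of the 23405 genes in the data, 31 of the small and 46 of the large subunit. It used symbols and no measured value. Each gene was represented by its transcript of highest mean over the 6 libraries. The question for these genes was whether their RNA differed between knockout (KO) and wild-type (WT) cells, and whether the subunits differed from each other.

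The small subunit reads the message and the large subunit joins amino acids. Each ribosome holds 1 copy of nearly every ribosomal protein, so cells make these proteins in matched amounts. Their mRNAs are among the most abundant of most cells. Many begin with a C followed by a run of C and T bases, the terminal oligopyrimidine (TOP) motif. Through this motif mTOR signalling and the RNA-binding protein Larp1 control their translation. Mammalian genomes also carry many processed pseudogenes of these genes, which are intronless copies made from mRNA.

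RNA came from F4/80+ cells of the liver, F4/80 being a surface protein of mouse macrophages. The donors were C57BL/6 males aged 3 months on normal chow. Every animal, KO and WT alike, had received carbon tetrachloride (CCl4) into the peritoneum, a liver toxin used to induce fibrosis. Livers were digested, F4/80+ cells were selected with magnetic beads, and polyadenylated RNA was made into strand-specific libraries with the TruSeq Stranded mRNA kit. The KO group (KO+CCl4) and the WT group (WT+CCl4) had 3 libraries each. The labels used here do not name the deleted gene or the cells in which it was deleted, so no target level could be checked. They also do not say that libraries came from separate animals, so each p-value reflects only how much these 3 and 3 samples varied, which may be technical.

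With 1 transcript per gene the KO libraries held 10793260, 12822240 and 19167957 reads, against 15030947, 16604548 and 22166360 in the WT libraries. Adgre1, which encodes F4/80, averaged 5254 ± 1233 normalised counts in KO cells and 6208 ± 1613 in WT cells (SD, n = 3 each), and all 18 macrophage markers were read. Of these, 1 was called, Lyz2, the macrophage lysozyme, which was lower in KO cells (limma, log2 change -6.20, adjusted p = 0.0015). Over all tested genes 0.352% were called lower. The median log2 change of the macrophage markers was -0.14, with 5 of 18 above 0, and that of Adgre1 was -0.23. Clec4f, a Kupffer cell lectin, averaged 7182 ± 2322 normalised counts in KO cells and 3190 ± 72.9 in WT cells (SD, n = 3 each; limma adjusted p = 0.054). DESeq2 called 1 macrophage marker higher and 4 lower in KO cells, while it called 9% of all tested genes. Markers of other liver cells were also present and were unequal between the groups. Of 25 hepatocyte markers 10 were called higher in KO cells, with a median log2 change of 1.73, as were 5 of 17 endothelial markers (median 1.28) and 2 of 17 stellate cell markers (median 0.74), against 2.09% of all tested genes. These counts depended on the scaling and the tool. Over the other scalings and tools they ran from 9 to 16 for hepatocyte, 1 to 11 for endothelial and 1 to 5 for stellate cell markers. DESeq2, which gave the 11 and the 5, called 9% of all tested genes, in both directions together. By the same measure edgeR called 1.79% and limma-voom 2.13%. The medians stayed between 1.54 and 1.73, 1.10 and 1.35, and 0.55 and 0.76. Erythroid markers had the largest median of the marker lists, 3.05 over 9 tested genes with 8 above 0, though limma called 0. At an unadjusted limma p under 0.05 there were 6 of the 9, against 18% of all tested genes. Scaling to total library size called 3 of them higher, beside 539 calls over all tested genes. The hepatocyte list summed to 174188, 216339 and 317166 normalised counts in KO libraries, against 121538, 151240 and 53251 in WT libraries. The macrophage list summed to 80443, 95686 and 104834 in KO libraries, against 246863, 276896 and 145583 in WT libraries, and Lyz2 alone held 587, 1394 and 2023 of these counts in KO libraries, against 111085, 93637 and 63752 in WT libraries. The part of these cells in the ribosomal protein levels was not tested. In bulk RNA, fewer cells of a type and less RNA per cell cannot be told apart. Mitochondrially encoded transcripts took 16.4%, 16.2% and 19.9% of the KO reads, against 16.6%, 27.5% and 6.19% of the WT reads.

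All 77 ribosomal protein genes passed the filter on low counts, and none was called higher or lower in KO cells. The test was limma on log2(normalised count + 1) over all 15625 tested genes, with calls at a Benjamini-Hochberg adjusted p under 0.05. Over all tested genes 2.44% were called, 2.09% higher and 0.352% lower in KO cells. At an unadjusted p under 0.05 the count was 0 of 77 ribosomal protein genes, against 18% of all tested genes. edgeR's quasi-likelihood test, DESeq2 and limma-voom on the recovered reads also called 0 of the 77, while they called 1.79%, 9% and 2.13% of all tested genes. The smallest limma adjusted p of any ribosomal protein gene was 0.337, for Rpl10, whose kept transcript was annotated with a retained intron. With coding transcripts alone it was 0.356, for Rplp1, and with all transcripts summed 0.366, also for Rplp1.

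The median log2 change, KO minus WT, was 0.05 over the 77 genes and 0.05 over all tested genes. It was 0.06 for the small subunit, with 21 of 31 genes above 0, and 0.04 for the large subunit, with 28 of 46 above 0. The difference between the subunit medians was 0.02. Single genes ran from -0.97 for Rps29 to 0.95 for Rpl27. The 95% intervals reached 0.43 to 2.05 to each side of the estimate on the log2 scale, and 39 of the 77 reached less than 0.6. For 56 genes the whole interval lay between -1 and 1. For the other 21 the interval took in a change of 1 in at least 1 direction.

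**Figure D1:**
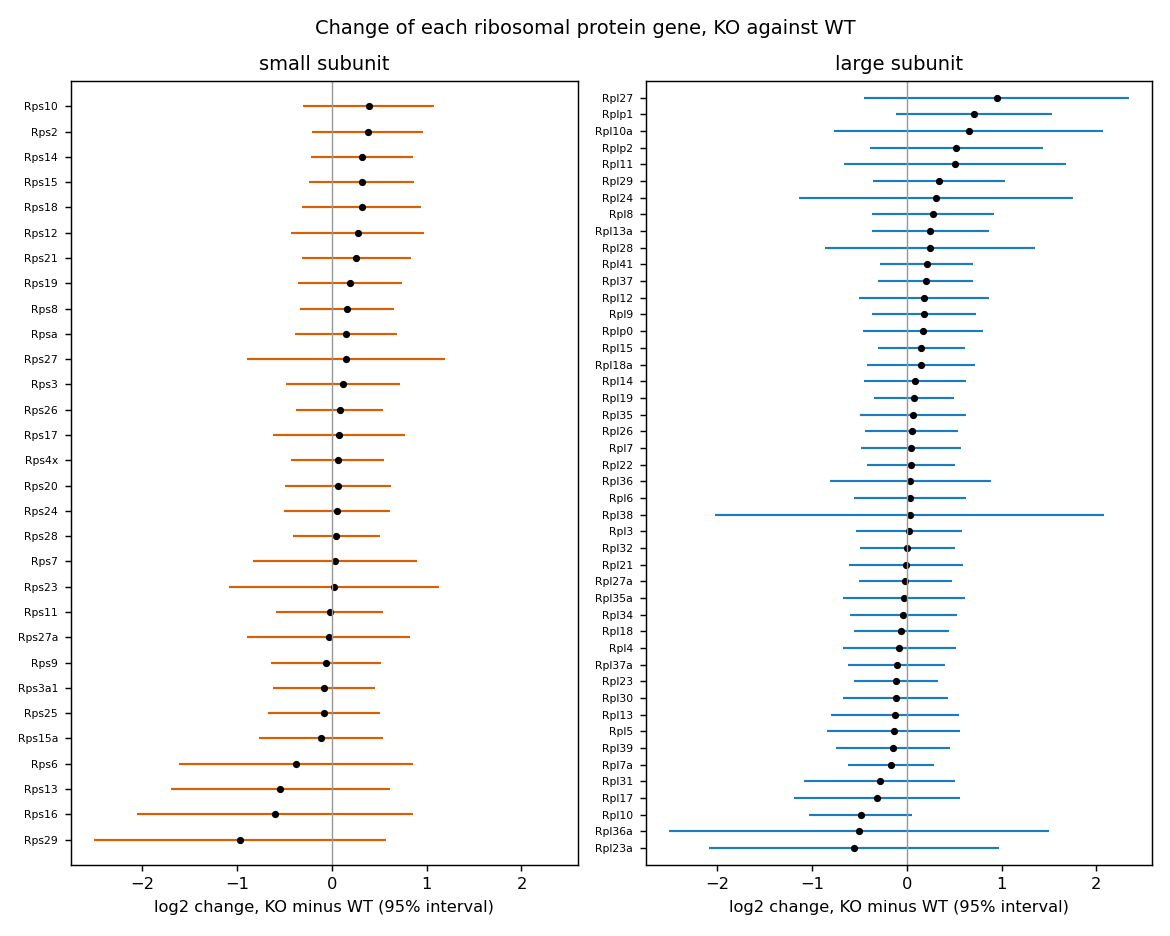
Log2 change of each ribosomal protein gene, KO minus WT, for small subunit genes (left, 1 gene not drawn) and the 46 large subunit genes (right), as a point with its 95% interval from limma (3 libraries per group). Every interval drawn crosses 0, and the widest belong to genes of low count such as Rpl38 and Rpl36a.

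Among small subunit genes, the smallest p belonged to Rps2, a protein at the site where mRNA enters the ribosome. Rps2 stood at 2966, 1977 and 1621 normalised counts in KO libraries, against 1235, 1814 and 1924 in WT libraries. KO replicate 1 was far above and WT replicate 1 far below the other 4 libraries, and the groups overlapped. The log2 change of Rps2 was 0.38 (SE 0.26, limma adjusted p = 0.504).

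Rps10, a protein of the small subunit head that is mutated in some human Diamond-Blackfan anaemias, had 1752, 1091 and 1064 normalised counts in KO libraries, against 625, 1042 and 1394 in WT libraries. It had the highest log2 change of the small subunit, 0.39 (SE 0.31, limma adjusted p = 0.576), and the groups overlapped here too. Rps14, a platform protein whose human gene is lost in a deletion form of myelodysplastic syndrome, averaged 7148 ± 2252 normalised counts in KO cells and 5559 ± 329 in WT cells (SD, n = 3 each; log2 change 0.32). Rps15, needed for export of the small subunit precursor from the nucleus, averaged 8165 ± 2389 in KO cells and 6446 ± 994 in WT cells (log2 change 0.31). In both genes the KO spread came from replicate 1, which was highest.

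Rpsa, also known as the laminin receptor, averaged 2287 ± 754 normalised counts in KO cells and 2005 ± 273 in WT cells (SD, n = 3 each; log2 change 0.15). The difference was smaller than the SD of the KO libraries.

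Rps29, a zinc-binding protein of the small subunit head, was the single one of the 77 genes whose groups did not overlap, while 22.9% of all tested genes had groups that did not overlap. Its kept transcript had 4.47, 13.1 and 12.7 normalised counts in KO libraries, against 17.5, 23.1 and 16.9 in WT libraries. These values rest on 3 to 30 reads per library, and the log2 change of -0.97 (SE 0.69) had a limma adjusted p of 0.517. Rps16, whose tail reaches the peptidyl site, and Rps6, the substrate of the S6 kinases, were similarly low. Rps16 had 64.1, 17.9 and 11.8 normalised counts in KO libraries, against 29.9, 42.0 and 40.4 in WT libraries. Rps6 had 29.8, 17.9 and 16.1 in KO libraries, against 17.5, 33.6 and 33.1 in WT libraries. Their KO and WT values overlapped, with log2 changes of -0.60 and -0.38.

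In the large subunit the acidic stalk was examined first, the arm of Rplp0 with dimers of Rplp1 and Rplp2 that calls elongation factors to the ribosome. Rplp1 stood at 12327, 7534 and 8129 normalised counts in KO libraries, against 3077, 6932 and 8092 in WT libraries. WT replicate 1 was far below every other library, and KO replicates 2 and 3 lay within or close to the range of WT replicates 2 and 3. The log2 change of Rplp1 was 0.71 (SE 0.36, limma adjusted p = 0.356). Rplp2 was likewise highest in KO replicate 1 and lowest in WT replicate 1, with 3221, 1668 and 1681 in KO libraries, against 755, 1726 and 2331 in WT libraries. Rplp0, which anchors the other stalk proteins, did not share the low WT replicate 1. It had 16664, 8438 and 9372 in KO libraries, against 9423, 9350 and 10484 in WT libraries. The log2 changes of Rplp2 and Rplp0 were 0.52 (SE 0.41) and 0.17 (SE 0.28), and neither passed.

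Rpl10, a late-joining protein needed to finish the large subunit, was lower in the mean of KO libraries, with 457, 367 and 292 normalised counts, against 521, 411 and 634 in WT libraries. KO replicate 1 lay above WT replicate 2, so the groups overlapped. Its log2 change was -0.49 (SE 0.24, 95% interval -1.03 to 0.06). Rpl27, another protein mutated in rare human Diamond-Blackfan anaemia, had 179, 125 and 54.97 in KO libraries, against 21.6, 75.6 and 100.5 in WT libraries. Its log2 change of 0.95 (SE 0.62, limma adjusted p = 0.481) was the highest of the 77 and rested on 21 to 179 reads per library.

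**Figure D2:**
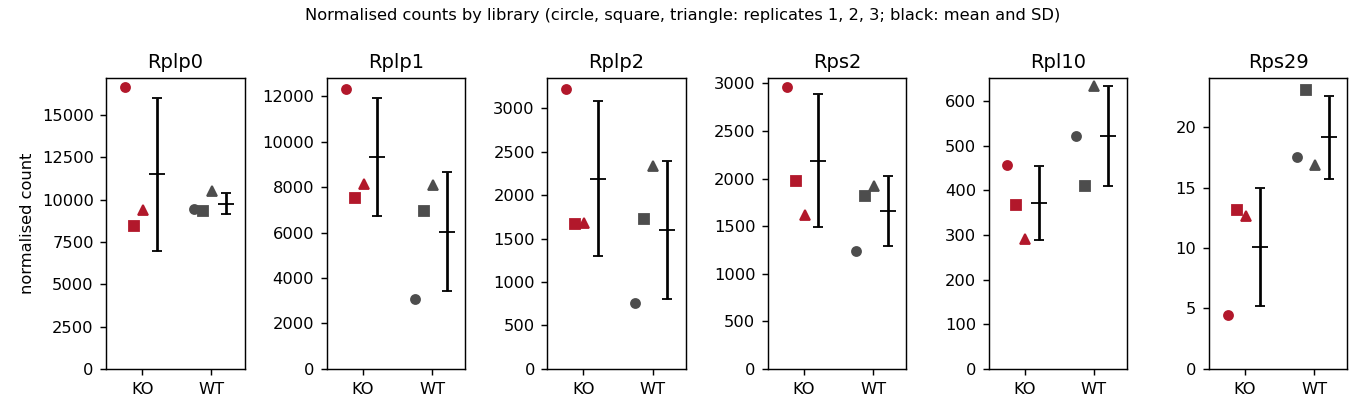
Normalised counts of 6 ribosomal protein genes in the 3 KO libraries (left in each panel) and the 3 WT libraries (right), with the mean and SD in black beside each group. KO replicate 1 is the highest library for Rplp0, Rplp1, Rplp2 and Rps2, WT replicate 1 is the lowest for Rplp1, Rplp2 and Rps2, and the groups of Rps29 alone do not overlap.

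The clearest pattern among these genes was that of 1 library. KO replicate 1 was the highest of the 6 libraries for 64 of the 77 genes, or 83.1%, against 24.2% of all tested genes. It was above both other KO libraries for 74 of the 77, or 96.1%, against 43.7% of all tested genes. The median of KO replicate 1 minus the mean of the other KO libraries was 0.75 on the log2 scale over the 77 genes, against 0.08 over all tested genes. Over the 1927 tested genes other than these with a kept transcript under 1000 bases it was 0.35, and over 75 mitochondrial ribosomal protein genes 0.31. Over 19 other TOP mRNAs it was 0.49, and over 11 elongation factors 0.42.

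Summed over the 77 genes, normalised counts were 264224, 161184 and 156575 in KO libraries, against 170880, 158421 and 190327 in WT libraries. The genes took 1.64%, 1.06% and 0.966% of the KO reads, against 1.104%, 0.909% and 1.53% of the WT reads. The means were 1.22% ± 0.368 in KO cells and 1.18% ± 0.317 in WT cells (SD, n = 3 each). KO replicate 1 and WT replicate 3 were therefore the libraries with the highest shares. Without mitochondrially encoded genes in the total, the shares were 1.97%, 1.26% and 1.21% in KO libraries, against 1.32%, 1.25% and 1.63% in WT libraries.

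Without KO replicate 1 the median log2 change of the 77 genes was -0.19, and without KO replicate 3 it was 0.19. Other genes moved with KO replicate 1. Its median difference from the other KO libraries was 2.26 for 9 tested erythroid markers, 1.19 for 13 neutrophil markers, 1.19 for 14 T and NK cell markers and 0.64 for 11 B cell markers. It was -0.35 for 18 macrophage, -0.49 for 17 stellate, -0.52 for 25 hepatocyte and -0.95 for 17 endothelial markers. The summed normalised counts of the T and NK cell markers were 16235, 7442 and 6913 in KO libraries, against 6932, 6461 and 14271 in WT libraries. KO replicate 1 and WT replicate 3, which were high in ribosomal protein share, were thus also the highest in that list. Erythroid markers summed to 268860, 104398 and 30841 in KO libraries, against 13216, 33523 and 2300 in WT libraries. Whether these cells had a part in the high values of KO replicate 1 was not tested.

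**Figure D3:**
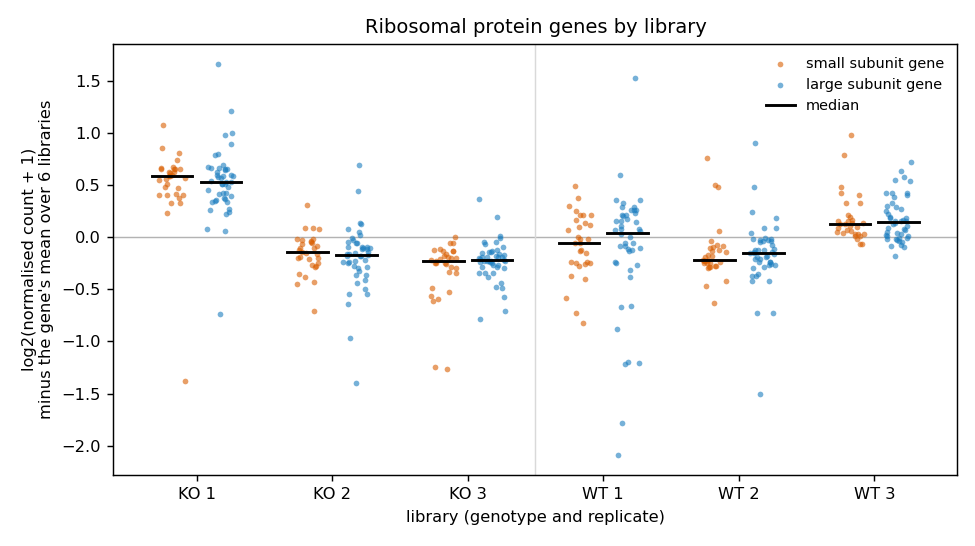
Log2 of normalised count + 1 of each ribosomal protein gene minus its own mean over the 6 libraries, for KO libraries (left) and WT libraries (right), with 1 point per gene and a bar at the median of each subunit. KO replicate 1 lies above the other libraries in both subunits, and WT replicate 1 has the longest lower tail.

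A second library pattern went with base composition. The lowest library was KO replicate 3 for 26 of the 77 genes, KO replicate 2 for 16, WT replicate 2 for 17 and WT replicate 1 for 15. Among the 15 genes with a GC content of at least 55% in the kept transcript WT replicate 1 was lowest for 8, and among the 62 others for 7. The median of WT replicate 1 minus the mean of the other WT libraries was -0.37 for the GC-rich genes and 0.09 for the others, on the log2 scale. Across the 77 genes the Spearman correlation of GC content with this difference was -0.602, and across 15739 genes with at least 10 reads in 3 libraries it was -0.381. The points share the same 3 libraries and are not independent replicates.

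GC content correlated likewise with the KO minus WT change, at 0.524 over the 77 genes and 0.24 over the 15739 genes. Without WT replicate 1 these correlations were 0.0847 and 0.106. The median log2 change was 0.24 for the 15 GC-rich genes and 0.03 for the 62 others. Rpl10a, of the mobile L1 stalk and picked after its values were seen, had the largest fall of the 77 genes in WT replicate 1. Its difference from the other WT libraries was -2.65 on the log2 scale, beside a median of -0.37 over the GC-rich genes. Rpl10a had 325, 285 and 197 normalised counts in KO libraries, against 48.4, 293 and 326 in WT libraries. Without WT replicate 1 the log2 change of Rplp1 was 0.28 and that of Rplp2 was 0.05. The GC content was 57.3% for Rplp1 and 54.6% for Rplp2, so Rplp2 belonged to the 62 others.

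**Figure D4:**
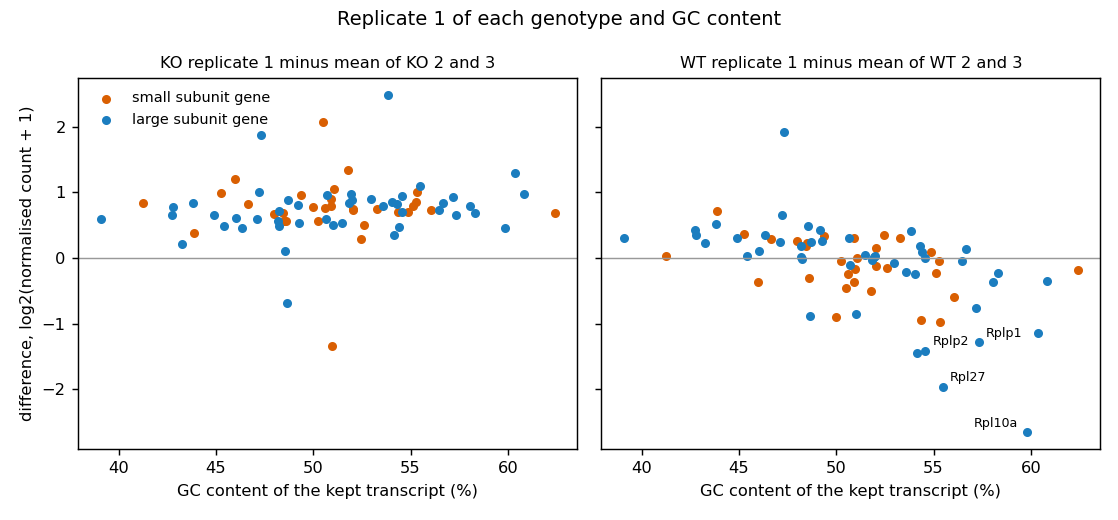
GC content of the kept transcript (%) against the difference between replicate 1 and the mean of the other replicates of the same genotype, in log2(normalised count + 1), for KO (left) and WT (right), with 1 point per ribosomal protein gene. KO replicate 1 is raised across the range of GC contents (Spearman 0.204), while WT replicate 1 falls toward high GC (Spearman -0.602), lowest for Rpl10a and Rpl27.

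Relative to each gene's mean over the 6 libraries, the subunit medians had the same sign in 5 libraries and opposite signs in WT replicate 1, at -0.05 for the small and 0.04 for the large subunit on the log2 scale. Reads of small subunit genes divided by reads of large subunit genes gave 0.860, 0.847 and 0.843 in KO libraries, against 0.905, 0.822 and 0.840 in WT libraries. The KO mean was 0.850 ± 0.00929 and the WT mean 0.856 ± 0.0434 (SD, n = 3 each), a difference smaller than the WT spread. With all transcripts of each gene summed the ratio was higher, at 1.583, 1.558 and 1.545 in KO libraries, against 1.553, 1.494 and 1.536 in WT libraries. The KO mean on that scale was 1.562 ± 0.0192 and the WT mean 1.528 ± 0.0305 (SD, n = 3 each), so the order of the means turned and KO replicate 1 was highest. Summed per kb of transcript, the ratio was 0.881, 0.879 and 0.863 in KO libraries, against 0.965, 0.847 and 0.869 in WT libraries. WT replicate 1 gave the highest value with 1 transcript per gene, per read and per kb. While the share of reads of all 77 genes in KO replicate 1 was 1.64%, against 1.06% and 0.966% in the other KO libraries, its subunit ratio of 0.860 stood close to their 0.847 and 0.843.

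Levels differed widely between ribosomal protein genes. Per kb of kept transcript, averaged over the 6 libraries, the highest normalised counts were those of Rplp1 (15394), Rpl8 (14347) and Rps15 (12772), and Rpl4 stood at 10487. Rpl8 lies by the peptidyl transferase centre, and Rpl4 lines the tunnel through which the new protein leaves. Rpl8 averaged 13527 ± 4584 normalised counts in KO cells and 10892 ± 1938 in WT cells, and Rpl4 averaged 15807 ± 3840 in KO cells and 16451 ± 1842 in WT cells (SD, n = 3 each). Their log2 changes were 0.28 and -0.08, and neither passed.

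The lowest per kb were Rpl23a (23.8), Rps6 (28.1), Rps16 (31.0), Rps29 (31.7), Rpl38 (38.9) and Rpl36a (44.1). Rpl23a sits at the tunnel exit, where the signal recognition particle docks, and Rpl38 is known for its part in translating Hox mRNAs in mouse embryos. Rpl23a had 7.45, 14.3 and 10.99 normalised counts in KO libraries, against 10.3, 25.2 and 15.7 in WT libraries. Rpl38 had 37.2, 3.57 and 9.30 in KO libraries, against 13.4, 6.30 and 15.2 in WT libraries. Rpl36a had 40.2, 9.53 and 10.99 in KO libraries, against 58.7, 6.30 and 33.1 in WT libraries. All 3 overlapped between groups, with 95% intervals that reached 1.53 to 2.05 to each side on the log2 scale.

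These lowest values stood beside higher values of pseudogenes elsewhere in the genome that share sequence with these genes. Pseudogenes that share a stretch of 50 bases with the kept transcript were present in the files for 73 of the 77 genes, 486 pseudogenes in all. For 33 of these genes the highest pseudogene exceeded the kept transcript of the gene per kb. The extreme was Rps29. Its pseudogene Gm14303 had 8532, 5752 and 5251 normalised counts in KO libraries, against 5796, 5723 and 6853 in WT libraries. This was 1165 times the level of the kept Rps29 transcript per kb. Rps16-ps2 stood at 198 times the level of the kept Rps16 transcript per kb, and Rpl36a-ps2 at 66.3 times that of Rpl36a. The kept transcripts of Rps29 and Rpl36a were annotated with a retained intron. Their ratios are therefore not those of a pseudogene to the coding mRNA.

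Coding sequence of Rps16 and Rpl36a and of their pseudogenes is shown because the pairs cannot be told apart by it. Each stretch has 60 bases, on the strand of the transcript, from the GENCODE transcripts of GRCm38, and capitals would mark differences, of which there are none.
Rps16, chr7:28350992-28351051, plus strand: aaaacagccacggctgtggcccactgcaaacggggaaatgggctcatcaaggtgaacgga
Rps16-ps2, chr5:129128410-129128469, minus strand: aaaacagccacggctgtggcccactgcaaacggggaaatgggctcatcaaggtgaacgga
Rpl36a, chrX:134586078-134586137, plus strand: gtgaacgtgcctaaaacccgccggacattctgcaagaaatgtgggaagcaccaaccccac
Rpl36a-ps2, chr3:145879023-145879082, plus strand: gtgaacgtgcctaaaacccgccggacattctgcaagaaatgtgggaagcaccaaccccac

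Over the whole aligned length the pairs were 100% identical, for 441 bases of Rps16 and 321 of Rpl36a. A read from within such a stretch matches both places, and no source used here says how the authors counted it. The counts of such genes and of their pseudogenes are therefore uncertain one by one. Adding to each gene the pseudogenes that share its 50-base stretches, an alternative chosen after seeing the data, turned the log2 change of Rps29 to 0.06, that of Rps16 to 0.16, that of Rpl23a to 0.10 and that of Rpl36a to 0.01.

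The share of 50-base stretches found in no other gene ran from 4.91% in Rpl35 to 100%, with a median of 59.4%. It was 76.5% at the median for the 6 genes above 10000 per kb and 47.9% for the 11 genes under 100 per kb. Across the 77 genes its Spearman correlation with the level per kb was 0.176, a description over genes that share the same libraries. For 22 genes the kept transcript was annotated as something other than protein coding, mostly with a retained intron, as for Rps29, Rpl10, Rpl23a and Rpl36a. The 15 genes with at least 80% of their stretches unique gave a median log2 change of 0.04, with 0 called.

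**Figure D5:**
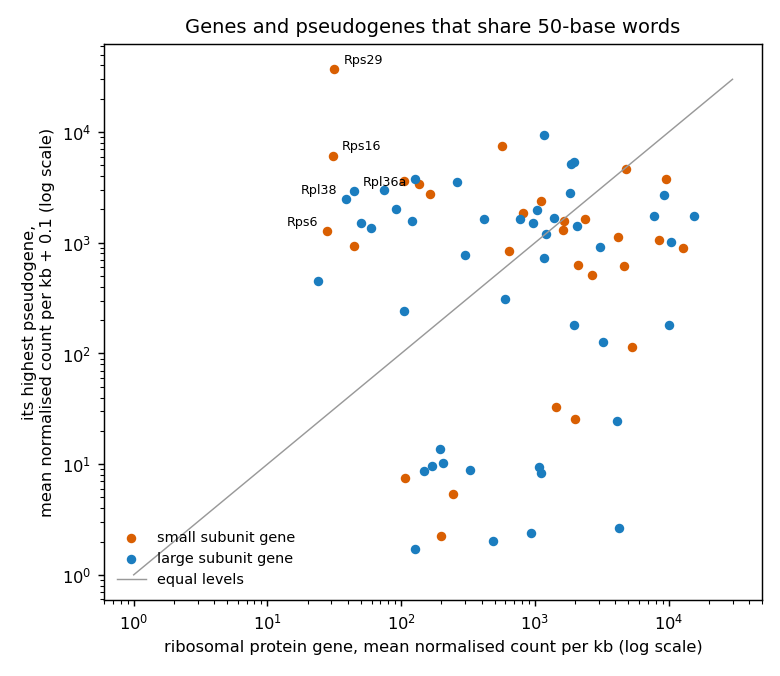
Mean normalised count per kb over 6 libraries of each ribosomal protein gene (horizontal) and of its highest pseudogene (vertical, plus 0.1), both on log scales, for the 73 genes with such a pseudogene. The 33 genes above the line of equal levels have a pseudogene with more counts per kb than the kept transcript of the gene, most of all Rps29.

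Start sites were examined for the TOP motif, since it ties these mRNAs to mTOR. RefSeq start windows of GRCm38.p6 were found for 57 of the 77 genes, with 67 entries. Runs were counted from the annotated start base onward on the transcript strand, without the bases before it. A C at the start base that opened a run of at least 5 C or T was found in 19.4% of these entries. The share was 2.47% of the 32784 entries of other genes. A run of at least 8 C or T anywhere within 10 bases of the start, before or after it, was found in 31.3%, against 7.84%. The windows of 5 genes are shown because 4 of them, Rps6, Rps10, Rpl38 and Rplp2, are described above and Rpl15 has the longest run. Each window has 10 bases before the start and 20 from it, on the transcript strand. Capitals mark the run from the start base, and C or T bases just before it stay in lower case.
Rpl15, chr14:18270967-18270996, minus strand: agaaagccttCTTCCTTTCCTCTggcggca
Rps10, chr17:27635225-27635254, minus strand: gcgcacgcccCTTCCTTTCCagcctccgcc
Rps6, chr4:86857348-86857377, minus strand: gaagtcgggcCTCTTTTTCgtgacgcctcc
Rpl38, chr11:114668570-114668599, plus strand: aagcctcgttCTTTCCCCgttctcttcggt
Rplp2, chr7:141447641-141447670, plus strand: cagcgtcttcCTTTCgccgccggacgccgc

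Counted from the start base, the run lengths in these windows were 13, 10, 9, 8 and 5 bases. The 21 genes with a run of at least 8 near the start had a median log2 change of 0.06, and the 36 matched genes without one had 0.05. A match is only a description of letters, and annotated starts can differ from those used in these cells.

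Among ribosomal proteins outside the symbol rule, Rack1 and Fau were not called by limma, edgeR, DESeq2 or limma-voom. Rack1, a signalling scaffold on the small subunit, averaged 17096 ± 5217 normalised counts in KO cells and 16109 ± 1275 in WT cells (SD, n = 3 each; log2 change 0.05). Fau, a ubiquitin-like protein fused to a small subunit protein, had a log2 change of -0.20 (SE 0.47).

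Of 9 paralogs, 7 were tested and 1 was called, lower in KO cells. Over all tested genes 0.352% were called lower and 2.44% in either direction. Rpl3l, the muscle counterpart of Rpl3, had 0, 0 and 3 reads in KO libraries, against 33, 57 and 77 reads in WT libraries. Its limma log2 change was -4.90 (SE 0.89, adjusted p = 0.030). Rpl3l passed the filter on low counts only through the WT libraries, where it was high. Its KO values lay at the floor, so the call is no independent support for a difference. Set on the authors' scale, the WT to KO ratio of the summed reads was 40.5, with a 95% counting interval of 13.6 to 198 that covers counting error only. Leaving out 1 library at a time kept the direction but ended the call in 5 of 6 fits, with adjusted p from 0.027 to 0.102. Rpl3 itself had 2148, 1213 and 1120 normalised counts in KO libraries, against 1423, 1304 and 1495 in WT libraries (log2 change 0.02). The kept Rpl3 transcript was annotated with a retained intron. The other tested paralogs had log2 changes of 0.35 (Rps27l, a p53 target), 0.23 (Rps4l), 0.09 (Rps27rt), 0.00 (Rpl36al), -0.10 (Rpl7l1) and -0.21 (Rpl22l1), and none passed.

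In the rest of the translation machinery, limma, edgeR, DESeq2 and limma-voom each made 0 calls in the 7 lists that follow. The 75 tested mitochondrial ribosomal protein genes had 5 at an unadjusted limma p under 0.05, while 18% of all tested genes had such a p. Their median log2 change was 0.19 with 64 above 0, beside 8472 of 15625 tested genes above 0, and 0.00 with 38 above 0 once library medians were set equal, a scaling that moved the median of all tested genes to -0.14. The lowest p in that list belonged to Mrps24, with 422, 361 and 331 normalised counts in KO libraries, against 209, 244 and 257 in WT libraries (log2 change 0.65, SE 0.21, limma adjusted p = 0.138). Mrpl46 had a log2 change of 0.64 (SE 0.24). In both genes all KO values were above all WT values. Groups did not overlap for 11 of the 75 genes, beside 22.9% of all tested genes.

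Initiation factors (37 tested, median -0.05) and elongation factors (11 tested, median 0.03) each had 1 gene at an unadjusted limma p under 0.05, against the same 18% of all tested genes. The initiation scaffold Eif4g3 had a log2 change of -0.40 and the eIF3 subunit Eif3b one of 0.34, both without overlap of the groups. Groups did not overlap for 6 of the 37 initiation factors, beside 22.9% of all tested genes. Eef1a2, an elongation factor mainly of muscle and nerve, had 0, 0 and 6 reads in KO libraries, against 11, 11 and 28 in WT libraries. Its WT to KO ratio was 6.06, with a 95% counting interval of 2.60 to 17.3 that covers counting error only. Eef1a2 passed the filter on low counts through its WT reads, and limma's adjusted p was 0.216. Eefsec, which delivers selenocysteine, had a log2 change of 0.33.

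The other 19 TOP mRNAs had a median of -0.04, with 0 genes at an unadjusted limma p under 0.05. Tpt1, a classical TOP mRNA, had 1156, 982 and 781 normalised counts in KO libraries, against 236, 524 and 969 in WT libraries (log2 change 0.96, SE 0.43, limma adjusted p = 0.280). Its lowest value was again that of WT replicate 1. Hnrnpa1, an RNA-binding protein, had a log2 change of -0.53 (SE 0.24).

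Ribosome biogenesis genes (50 tested, median -0.04) and RNA polymerase I genes (15 tested, median -0.07) had 0 and 1 genes at an unadjusted limma p under 0.05, beside 18% of all tested genes. Polr1a, the largest subunit of the polymerase that makes ribosomal RNA, had 507, 375 and 555 normalised counts in KO libraries, against 654, 798 and 719 in WT libraries (log2 change -0.61, SE 0.20, limma adjusted p = 0.151). Its partner Polr1e had a log2 change of -0.36. Mdn1, which strips factors from the large subunit precursor, had -0.40, and Nop58, of the complexes that methylate ribosomal RNA, had -0.34. KO values of Polr1a, Mdn1 and Nop58 lay below all WT values. Groups did not overlap for 8 of the 50 biogenesis and 1 of the 15 polymerase genes, beside 22.9% of all tested genes.

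Of 23 genes that regulate ribosomal protein synthesis, among them Mtor, Larp1 and Myc, 1 had an unadjusted limma p under 0.05, beside 18% of all tested genes. Their median log2 change was -0.17, with 5 of 23 above 0, beside 0.05 over all tested genes, and it was -0.35 with library medians set equal. Larp4b, an RNA-binding protein, had a log2 change of -0.42 (limma adjusted p = 0.252) and the transcription factor Sp1 one of -0.38 (limma adjusted p = 0.308). In KO replicate 1 this list stood 0.02 from the other KO libraries at the median, against 0.75 for the ribosomal protein genes. That difference was 0.49 for the other TOP mRNAs, 0.42 for elongation factors and 0.35 for the tested paralogs. For RNA polymerase I genes it was 0.33, for biogenesis genes 0.24 and for initiation factors 0.17.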

How the data were processed

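RNA-seq of 6 libraries was used. Per the file headers, the authors deposited normalised counts per Ensembl transcript, a signal made from read counts by a scaling factor for each library. All values (100%) were whole multiples of the value of 1 read (tolerance 0.001), so reads were recovered. Per the submitters' processing notes, the build was GRCm38.p4 and the tools included HTSeq 0.5.3, DESeq 1.8.3, STAR 2.4.0k, bcl2fastq 2.17 and SAMtools. No source used here gives the strand setting, the annotation or the treatment of reads with several matches. The spans of 23 of the 77 genes overlap another gene, 5 of them on the same strand, and could share reads.

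GENCODE M21 matched 78344 of 79382 transcripts, and the other 1038 (1.02% to 1.31% of reads) were not analysed here. The transcript of highest mean stood for each gene. Genes were kept by filterByExpr on the reads, and log2(normalised count + 1) was tested with limma 3.58.1 (trended prior, R 4.3.3), two-sided, with Benjamini-Hochberg adjustment over 15625 genes. Changes of low genes are understated on this scale. edgeR 4.0.16, run on the recovered reads, called 280 genes, and DESeq2 1.42.0 called 1407. Medians and shares over genes have no test. On simulated data (KO against WT, 15625 genes), limma called 20%, 68%, 88% and 90% of 50 genes each changed by log2 1, 2, 3 and 4, and 11 of 15425 unchanged ones. The simulation drew each gene independently from a common profile, without shifts shared by genes within a library. The real libraries had such shifts, so these rates may not hold for them.

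The genes and lists were chosen with earlier results of these data known. Genes named are the 4 of smallest p, the 3 highest and 3 lowest per kb and the most changed of each subunit, Rpsa and the stalk genes, the tested relatives, and in each other list the called genes and the 2 of smallest p. Some genes that this rule took are left out of the text. Marker lists are given mainly as counts and medians. Rpl3, Rpl10a, Rpl15 and Rpl35 were added after their values were seen. Alternatives were other scalings, filters, pseudocounts, tools and transcript choices, a replicate block and leaving out libraries. Pooling pseudogenes, coding transcripts alone and leaving out both replicate 1 libraries were added after seeing the data. Sequences came from GENCODE M21 and, for start windows, RefSeq (GRCm38.p6); Python 3.11.15 with Biopython 1.88 was used.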

Additional observations from a re-analysis of the deposited data

How the results depend on the processing

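None of the 77 ribosomal protein genes was called under any of 23 alternatives, which made 8 to 1407 calls over all tested genes. Their smallest adjusted p ran from 0.156 to 0.524. At most 2 of them had an unadjusted p under 0.05, in the fit without KO replicate 1, against 20.3% of all tested genes. Over the alternatives 12.9% to 21.2% of all tested genes had an unadjusted p under 0.05. Precision is limited by 3 libraries per group and, for the lowest genes, by a few reads.

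Over all genes, 381 calls became 1407 with DESeq2, 232 with the sum of all transcripts, 175 without both replicate 1 libraries and 8 to 808 without 1 library, lowest without KO replicate 3. The cause was not tested. Replicate numbers were not taken as pairs, since deviations of same-numbered libraries correlated at -0.0149, 0.088 and -0.142 over 15625 genes. A replicate block gave 532 calls, with 0 of the 77. Without 1 library the median log2 change of the 77 genes ran from -0.19 to 0.19, of the small subunit from -0.14 to 0.25, of the large from -0.19 to 0.16, and their difference from 0.0091 to 0.093. The share of reads ran from 1.01% to 1.35% in KO and 1.01% to 1.32% in WT, and the subunit ratio from 0.845 to 0.854 in KO and 0.831 to 0.873 in WT. With pseudogenes added, the subunit difference was 0.071, the shares 1.71% in KO and 1.66% in WT and the KO ratio 0.828. Per kb the KO ratio was 0.874, and with all transcripts summed the ratios were 1.56 in KO and 1.53 in WT.

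Setting library medians equal moved the median log2 change of all genes to -0.14 and turned Rpl38 (-0.16), Rplp0 (-0.014), Rpsa (-0.036), Rack1 (-0.14), Rps27rt (-0.093) and Rpl36al (-0.18). Rpl38, Rack1 and Rpl36al also turned with TMM factors (-0.024, -0.0087, -0.051), total library size (-0.054, -0.034, -0.077) and the total without mitochondrial genes (-0.043, -0.029, -0.071). Rpl36al turned with edgeR (-0.0019) and limma-voom (-0.074), and Rpl38 with limma-voom (-0.20) and summed transcripts (-0.0026). Pooling pseudogenes turned Rps29 (0.059), Rps16 (0.16), Rpl23a (0.10) and Rpl36a (0.010). Leaving out both replicate 1 libraries turned Rps2 (-0.062), Rps10 (-0.16), Rpl27 (-0.070), Rplp2 (-0.26), Rpl8 (-0.11), Rpl38 (-0.66), Rplp0 (-0.15), Rpsa (-0.19), Rack1 (-0.17), Rpl36al (-0.21), Eefsec (-0.12), Cd2 (-0.064) and Zap70 (-0.21).

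Without 1 library, values also changed sign for Cd2 (-0.024 to 0.70), Cr2 (-0.54 to 0.10), Fcer2a (-0.047 to 0.71), Rack1 (-0.19 to 0.19), Rpl22l1 (-0.44 to 0.018), Rpl36a (-1.38 to 0.14), Rpl36al (-0.29 to 0.21), Rpl38 (-0.80 to 0.73), Rpl4 (-0.27 to 0.051), Rplp0 (-0.13 to 0.36), Rps27rt (-0.27 to 0.36), Rps4l (-0.18 to 0.52) and Rpsa (-0.11 to 0.32). None of these turned values had passed the test.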
